A study of Homo sapiens with 6 samples.

Results

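The DLGAP and DLG genes encode 2 families of scaffold proteins that bind each other. They were taken as the 5 DLGAP genes (DLGAP1 to DLGAP5) and the 5 DLG genes (DLG1 to DLG5), 10 of the 58395 genes in the count tables, and were followed in 6 clonal lines of HEK293, an established line of human embryonic kidney origin. GST lines 2, 8 and 9 expressed GST-3F, a tagged glutathione S-transferase, as the control. NOCT lines 4, 11 and 12 expressed NOCT ∆(2-15)-3F, the tagged circadian deadenylase-family protein nocturnin lacking residues 2 to 15. Each line is 1 clone, plated and harvested after 3 days with no treatment named in the labels, so the spread between lines of a group is a spread between clones, and neither the promoter of the constructs nor any shared batch is given in the labels. DLGAP1 was chosen because it was among the 10 genes that passed an adjusted p of 0.05 between NOCT and GST lines; the other 9 genes were added as its relatives. The difference of DLGAP1 between the groups is therefore given as a description with no test, and the differences of the other genes come from the same comparison.

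In neurons, DLG proteins are membrane-associated guanylate kinase scaffolds that hold receptors and adhesion proteins at the synapse through PDZ domains. DLGAP proteins, also called SAPAP or GKAP, bind the guanylate kinase domain of DLG proteins and link them to SHANK and HOMER proteins deeper in the postsynaptic density. In epithelial and dividing cells, DLG1 and DLG5 act in cell polarity, and DLGAP5, known as HURP, is a mitotic protein that binds spindle microtubules.

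The starts of 3 members are shown first, because these are the genes whose group means differed most in fold among the 9 that were tested for a difference (DLGAP1 and DLGAP4) or whose lines reached the highest level (DLGAP5). The windows are RefSeq promoters on GRCh38.p14, each with 250 bases before and 50 bases after an annotated start. The set used held 35116 windows, called all windows below. At least 1 window was taken from it for 7 of the 10 genes. DLGAP2 was left out of the windows taken, so 7 is not a count of the genes with an annotated window. In the DLGAP1 and DLGAP4 windows the capitals mark CG dinucleotides. In the DLGAP5 window they mark TTTGAA and its reverse complement TTCAAA, the core letters of the cell cycle genes homology region known from mitotic genes.

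DLGAP1, first window, chr18:3874711-3875010, minus strand: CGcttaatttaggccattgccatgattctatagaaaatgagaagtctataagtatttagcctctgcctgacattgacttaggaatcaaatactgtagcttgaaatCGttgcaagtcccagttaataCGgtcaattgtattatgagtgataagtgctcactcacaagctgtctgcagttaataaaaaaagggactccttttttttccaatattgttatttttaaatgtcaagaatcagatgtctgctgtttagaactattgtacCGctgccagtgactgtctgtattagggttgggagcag
DLGAP1, second window, chr18:3845309-3845608, minus strand: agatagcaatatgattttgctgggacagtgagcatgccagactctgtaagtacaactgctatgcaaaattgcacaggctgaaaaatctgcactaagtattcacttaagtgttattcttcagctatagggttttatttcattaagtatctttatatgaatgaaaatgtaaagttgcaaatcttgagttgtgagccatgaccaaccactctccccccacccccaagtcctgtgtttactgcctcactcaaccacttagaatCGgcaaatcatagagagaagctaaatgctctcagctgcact
DLGAP4, first window, chr20:36306089-36306388, plus strand: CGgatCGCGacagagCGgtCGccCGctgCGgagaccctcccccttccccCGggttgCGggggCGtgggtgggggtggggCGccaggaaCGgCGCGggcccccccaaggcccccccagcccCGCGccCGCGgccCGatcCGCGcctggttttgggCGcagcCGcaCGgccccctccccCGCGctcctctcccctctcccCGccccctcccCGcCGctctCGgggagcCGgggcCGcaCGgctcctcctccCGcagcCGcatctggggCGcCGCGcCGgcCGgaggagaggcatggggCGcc
DLGAP4, second window, chr20:36461218-36461517, plus strand: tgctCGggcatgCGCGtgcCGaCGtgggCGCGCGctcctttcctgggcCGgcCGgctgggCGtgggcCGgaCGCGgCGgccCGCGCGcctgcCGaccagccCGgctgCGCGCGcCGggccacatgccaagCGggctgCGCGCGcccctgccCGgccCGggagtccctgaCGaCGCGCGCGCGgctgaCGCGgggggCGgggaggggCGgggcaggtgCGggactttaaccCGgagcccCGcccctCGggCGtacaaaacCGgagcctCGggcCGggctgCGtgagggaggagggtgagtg
DLGAP5, chr14:55191536-55191835, minus strand: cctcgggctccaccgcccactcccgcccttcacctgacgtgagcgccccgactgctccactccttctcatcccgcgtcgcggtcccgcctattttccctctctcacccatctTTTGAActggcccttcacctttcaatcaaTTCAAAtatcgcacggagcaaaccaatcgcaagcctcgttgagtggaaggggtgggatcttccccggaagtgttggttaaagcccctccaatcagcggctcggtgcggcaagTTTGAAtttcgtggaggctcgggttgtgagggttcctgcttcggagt

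The DLGAP1 windows lie 581 kb and 610 kb inside the gene as annotated in GENCODE and hold 4 and 1 CG, against a median of 14 over all windows. The DLGAP4 windows shown hold 41 and 49 CG, and 93.3% and 98.4% of all windows held fewer. The remaining DLGAP4 window, at chr20:36472820-36473119 and not shown, holds 5 CG, and 29.6% of all windows held fewer, so the starts of this gene are not alike in CG. The DLGAP5 window holds TTTGAA 3 times on either strand, and 15.2% of all windows of this length hold it at least once. Counts per gene do not show which start was used in these lines.

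The libraries held 19729745 to 24422406 gene counts. Reads of the GST construct numbered 46 to 88 in GST lines and 0 to 1 in NOCT lines, and reads of the NOCT construct numbered 46 to 82 in NOCT lines and 3 to 7 in GST lines, as labelled. Of 10 genes fixed as marks of HEK293, 8 were at 1 TPM or more in each line (TPM are counts scaled for gene length and for the library). PAX2 and NEFM were the exceptions. The summed level of the 10 was 606 to 804 TPM in GST lines and 704 to 1282 TPM in NOCT lines. PAX2 was lower in each NOCT line (0.370 to 0.618 TPM, against 1.80 to 2.45 TPM in GST lines). EYA1 (5.93 to 10.5 against 3.78 to 4.32 TPM), KRT8 (45.8 to 114 against 31.3 to 38.3 TPM) and KRT18 (66.3 to 130 against 56.0 to 63.9 TPM) were higher in each NOCT line. Blood markers were near 0 in each line, with HBB at 0. Of 5 fibroblast markers, 3 were under 1 TPM in each line and 1, COL1A1, was at 2.14 to 7.28 TPM. The summed level of the 5 was 3.99 to 4.67 TPM in GST lines and 2.84 to 9.38 TPM in NOCT lines. Of 12 neuron markers, 8 were under 1 TPM in each line and none was at 0 in each line. RBFOX3 was at 0.148 TPM or less. The 2 at 1 TPM or more in each line were MAP2 (2.37 to 8.84 TPM) and GAD1 (4.72 to 9.76 TPM).

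Levels of the 10 genes spanned more than 3 orders of magnitude on the TPM scale. DLGAP5 was the highest, with a mean over the 6 lines of 110 TPM and a range of 90.8 to 144 TPM. DLG5 (29.4 TPM), DLG3 (25.2 TPM) and DLG1 (18.8 TPM) followed. DLG4 had a mean of 6.23 TPM, DLGAP4 3.88 TPM, DLGAP1 1.51 TPM, DLGAP3 1.42 TPM, DLG2 0.510 TPM and DLGAP2 0.0770 TPM. Neighbours in this order had separate ranges over the 6 lines, except that DLG5 overlapped DLG3, DLG4 overlapped DLGAP4, DLGAP4 overlapped DLGAP1 and DLGAP1 overlapped DLGAP3. The DLGAP1 mean joins 2.08 to 4.50 TPM in GST lines and 0.0352 to 0.0879 TPM in NOCT lines. In NOCT lines DLGAP1 lay below DLG2 (0.388 to 0.618 TPM) and overlapped DLGAP2 (0.0468 to 0.0642 TPM). DLGAP5 alone made up 92.0% to 95.7% of the summed TPM of the DLGAP family in a line. In the DLG family, DLG5 took 35.3% to 38.9%, DLG3 29.3% to 33.2% and DLG1 22.3% to 25.005%, while DLG4 and DLG2 took 6.77% to 11.2% and 0.499% to 0.822%.

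**Figure D1:**
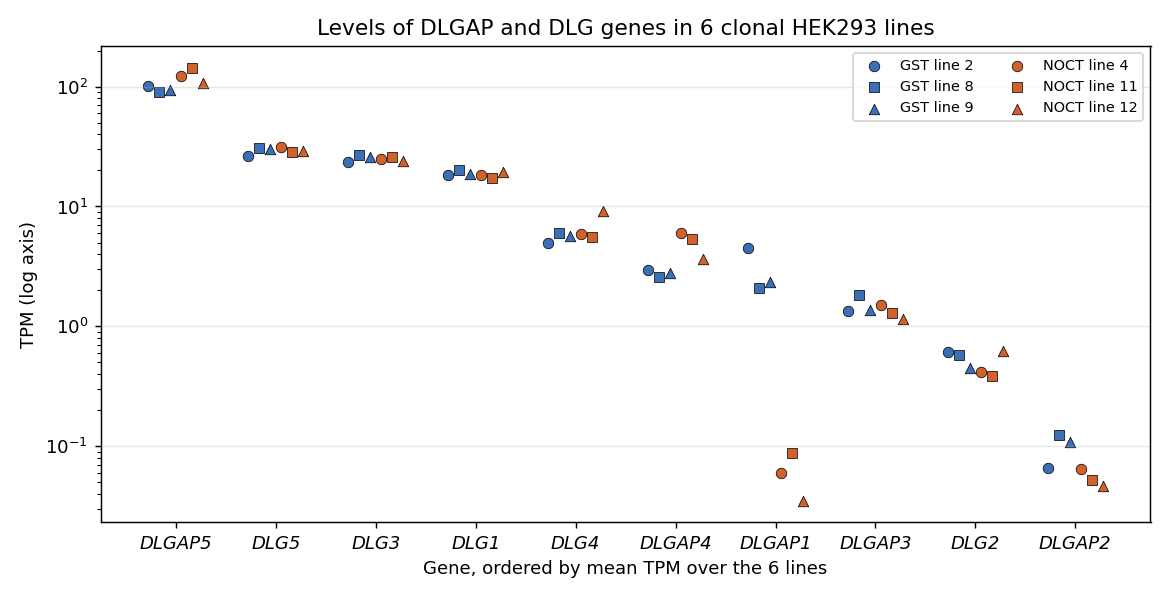
TPM on a log axis of each gene in each of the 6 lines (blue, GST; orange, NOCT; symbols, lines), ordered by mean TPM. DLGAP5 lies at 90.8 to 144 TPM in each line, and DLGAP1 is the gene whose NOCT lines (0.0352 to 0.0879 TPM) lie farthest below its GST lines (2.08 to 4.50 TPM).

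Among the DLGAP genes, DLGAP1 (ENSG00000170579; GRCh38 chromosome 18, 3496032 to 4455335, minus strand), a postsynaptic scaffold gene spread over 959 kb, differed most. Its reads numbered 384, 186 and 207 in GST lines 2, 8 and 9, the order of lines used throughout, against 6, 8 and 3 in NOCT lines 4, 11 and 12. In CPM, counts scaled to a common library size, these were 20.3 (95% exact Poisson interval 18.3 to 22.4), 8.64 (7.44 to 9.97) and 10.2 (8.84 to 11.7) in the GST lines. The NOCT lines had 0.236 (0.0866 to 0.513), 0.359 (0.155 to 0.707) and 0.151 CPM (0.0311 to 0.440). Each GST line was above each NOCT line, and the group means were 13.0 ± 6.32 and 0.248 ± 0.105 CPM (SD, n = 3 each), 52.4-fold lower in NOCT lines. The GST lines were themselves unequal: line 2 was 2.35 times line 8, and their counting intervals did not meet. The intervals of the 3 NOCT lines overlapped one another. In bulk RNA, fewer cells that express a gene and less RNA per cell cannot be told apart.

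Another row inside the DLGAP1 span, on the same strand, was also lower in NOCT lines. GAPDHP66 (ENSG00000250933), a processed pseudogene of GAPDH, overlaps no annotated exon of DLGAP1, so reads placed in it are counted in its own row. Reads of unspliced DLGAP1 RNA would also be counted there. In GST lines the row held 5.02% as many reads as DLGAP1, and the same share in NOCT lines would be 0.853 counts. A change of GAPDHP66 itself and carry-over from DLGAP1 therefore cannot be told apart. GAPDHP66 was singled out after its values were seen. The GST clones gave 15, 9 and 15 reads and each NOCT clone 0. Taking 3 counts over the NOCT group as the limit that a count of 0 allows, GST lines were at least 14.5-fold higher, for counting error only. Its sequence resembles GAPDH and other GAPDH pseudogenes, which makes the row uncertain. All 4 rows on the DLGAP1 strand in the span, none in an exon of DLGAP1, summed to 17, 12 and 17 counts in GST lines 2, 8 and 9 and to 0 in each NOCT line. GAPDHP66 gave 39 of these 46 GST counts.

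The opposite strand of the same span did not have this pattern. Its 9 rows summed to 77, 84 and 56 counts in GST lines 2, 8 and 9 and to 93, 174 and 128 in NOCT lines 4, 11 and 12. Most of these were in the antisense RNA genes DLGAP1-AS1 (chromosome 18, 3593732 to 3598352) and DLGAP1-AS2 (3603000 to 3608336). DLGAP1-AS2 was at 1.64, 1.86 and 1.28 CPM in the GST clones, and at 1.85, 3.90 and 3.72 CPM in the NOCT clones, with a log2 fold change of 0.98 (SE 0.34, adjusted p 0.268 in edgeR). NOCT line 4 overlapped the GST lines. DLGAP1-AS1 had a log2 fold change of 0.51 (SE 0.35, adjusted p 0.556 in edgeR), and DLGAP1-AS3 and DLGAP1-AS5 had 0 counts in the 6 libraries, while DLGAP1-AS4 had 1.

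**Figure D2:**
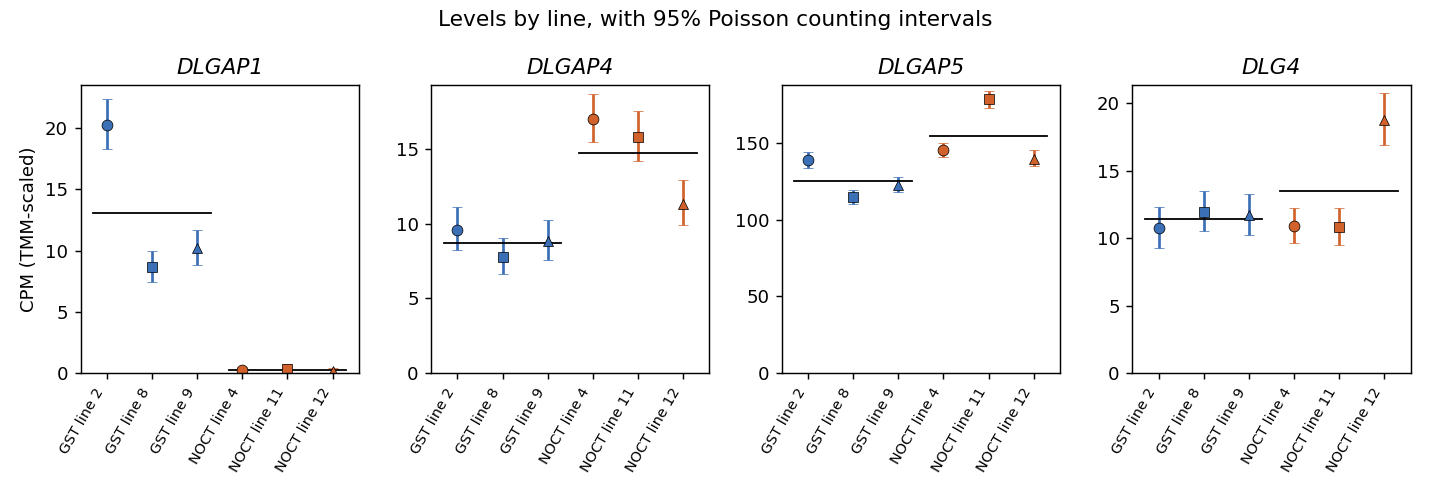
CPM of DLGAP1, DLGAP4, DLGAP5 and DLG4 in each line, with 95% exact Poisson intervals as error bars and group means as black lines. DLGAP1 lies at 8.64 to 20.3 CPM in GST lines and under 1 CPM in NOCT lines, DLGAP4 is higher in NOCT lines 4 and 11, and DLG4 is higher in NOCT line 12.

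The chromosomal surroundings of DLGAP1 also differed between lines, by less. For 72 tested neighbours, taken as up to 50 per side at a mean level of 1 CPM or above, the median deviation from the mean of the 6 lines on the log2 CPM scale was 0.35, 0.17 and 0.27 in GST lines 2, 8 and 9. It was -0.75, -0.24 and 0.17 in NOCT lines 4, 11 and 12. The difference between group means was -0.54 for the neighbours and -5.21 for DLGAP1 on this scale, and DLGAP1 minus its neighbours was at -4.67 with groups that did not overlap. DLGAP1 was chosen for its difference between these groups, so what remains after subtraction is a description. The part of the surroundings in the DLGAP1 difference was not tested. The nearest genes past the 3′ end of DLGAP1 were TGIF1 (log2 fold change 0.08), MYL12B (-0.23), MYL12A (-0.41), LPIN2 (-0.38) and the pseudogene AP000919.1 (-0.57). Past its 5′ end they were LINC00667 (-0.17), ZBTB14 (-0.25), EPB41L3 (-0.61), TMEM200C (-0.46) and L3MBTL4 (-0.68). None of the 10 passed, with edgeR adjusted p-values of 0.162 or more.

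**Figure D3:**
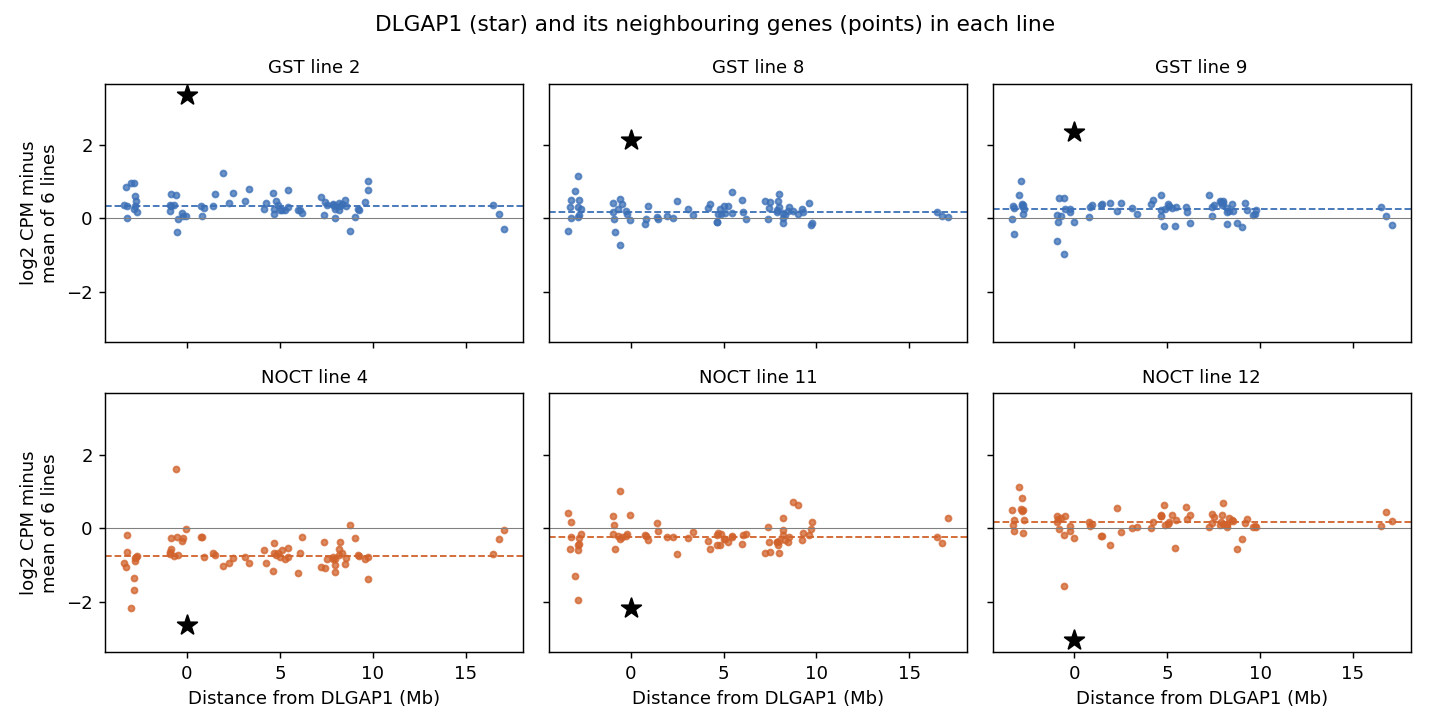
Deviation of log2 CPM from the mean of the 6 lines for DLGAP1 (star) and its 72 tested neighbours (points), against distance from DLGAP1 in Mb, 1 panel per line; the dashed line is the neighbours' median. The star is above all 72 points in the 3 GST panels and below all of them in the 3 NOCT panels, while the neighbours' median moves from 0.35 in GST line 2 to -0.75 in NOCT line 4.

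By Pearson r of log2 CPM over the 6 lines, genes among those most like DLGAP1, of those with a mean of at least 1 CPM, were DIP2C (r = 0.995), PKN3 (0.995), NPM1P27 (0.989) and ADGRB3 (0.987). These values share the same 6 libraries and mostly the same step between groups. ADGRB3, an adhesion receptor gene of neurons, went from 12.0 to 0.336 CPM between the means of GST and NOCT lines, whereas DIP2C went from 34.6 to 23.4 CPM. The summed level of the neuron markers overlapped between groups, at 14.5 to 17.8 TPM in GST lines and 11.6 to 22.9 TPM in NOCT lines. SYT1 was at 6.33, 2.29 and 3.24 TPM in the GST clones, and at 2.81, 0.369 and 0 TPM in the NOCT clones, and MAP2 was at 2.37 to 3.95 TPM in GST lines and 4.37 to 8.84 TPM in NOCT lines. Their part in the DLGAP1 difference was not tested.

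Of the 9 members that could be tested, DLGAP1 was the only one past an adjusted p of 0.05, where 0.0579% of the 17261 genes tested passed in either direction (0.0348% lower, 0.0232% higher). An unadjusted p under 0.05 was reached by 3 members and by 13.9% of all genes tested. Since DLGAP1 was chosen on this call, nothing is read from that count. In the authors' deposited table DLGAP1 has a shrunken log2 fold change of -2.97. Among the 9, the groups did not overlap for DLGAP1 and DLGAP3 (lower) and for DLGAP4 and DLGAP5 (higher), while 9.54% of all genes tested were lower and 10.5% higher without overlap. The median log2 fold change was -0.11 over the 9 and 0.00465 over all genes tested.

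DLGAP4 (ENSG00000080845; chromosome 20, 36306336 to 36528637, plus strand), a DLGAP gene expressed in many tissues, had the next largest fold change among the 9 tested members, in the opposite direction to DLGAP1. It was at 9.61, 7.76 and 8.85 CPM in the GST clones, and at 17.0, 15.8 and 11.3 CPM in the NOCT clones. The NOCT lines were higher by a log2 fold change of 0.75 ± 0.19 (SE), which did not pass (edgeR adjusted p 0.188; unadjusted 0.00431). The call depended on the setting, and DLGAP4 passed in 3 of 15 alternatives. DESeq2 gave an adjusted p of 0.0248, and edgeR with no filter on low counts gave 0.0389. Without NOCT line 12 edgeR gave a log2 fold change of 0.91 with an adjusted p of 0.0197. These settings called more genes overall: 508 of 17261, 888 of 34539 and 970 of 17882, in this order. The reported fit called 10 of 17261. In the authors' deposited table, DLGAP4 has a shrunken log2 fold change of 0.62 and an adjusted p of 0.0237. The neighbours of DLGAP4 were at -0.14 to -0.07 in the GST clones and at 0.28, 0.21 and -0.25 in the NOCT clones (median deviation, log2 CPM). After subtracting the neighbours, DLGAP4 stood at -0.12, -0.39 and -0.27 in the GST clones and at 0.32, 0.28 and 0.26 in the NOCT clones, so that the 3 NOCT lines were more alike than in the raw values. The genes most like DLGAP4 over the 6 lines were TMTC3 (r = 0.997), TGFB1 (0.996) and DTD1 (0.995).

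DLGAP5 (ENSG00000126787; chromosome 14, 55148112 to 55191678, minus strand) differed between the groups by about as much as its chromosomal surroundings. It was at 139, 115 and 123 CPM in the GST clones, and at 145, 178 and 140 CPM in the NOCT clones. The groups were separated by less than the counting error, since GST line 2 (95% exact Poisson interval 134 to 144 CPM) and NOCT line 12 (135 to 145 CPM) overlapped. The log2 fold change was 0.30 ± 0.12 (SE; edgeR adjusted p 0.331). Its 100 neighbours had median deviations of 0.08, -0.37 and -0.20 in GST lines 2, 8 and 9 and of 0.16, 0.17 and 0.17 in NOCT lines 4, 11 and 12. DLGAP5 differed by 0.30 between group means of log2 CPM and its neighbours by 0.33; DLGAP5 minus its neighbours was at -0.04 with groups that overlapped.

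The remaining DLGAP genes were low. DLGAP3 (ENSG00000116544; chromosome 1, 34865436 to 34929585, minus strand), a scaffold of striatal synapses, was at 2.01, 2.51 and 1.97 CPM in the GST clones, and at 1.93, 1.75 and 1.61 CPM in the NOCT clones, on 32 to 54 counts. Its log2 fold change was -0.29 ± 0.25 (SE; edgeR adjusted p 0.628), and the counting intervals of all 6 lines overlapped. DLGAP2 (ENSG00000198010; chromosome 8, 737596 to 1708474, plus strand) had 7, 14 and 12 counts in GST lines 2, 8 and 9 and 8, 6 and 5 in NOCT lines 4, 11 and 12. Each NOCT line was below each GST line, with group means of 0.537 and 0.278 CPM, 1.93-fold lower in NOCT lines. It did not pass the filter on low counts and was not tested, and the counting intervals of all 6 lines overlapped.

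**Figure D4:**
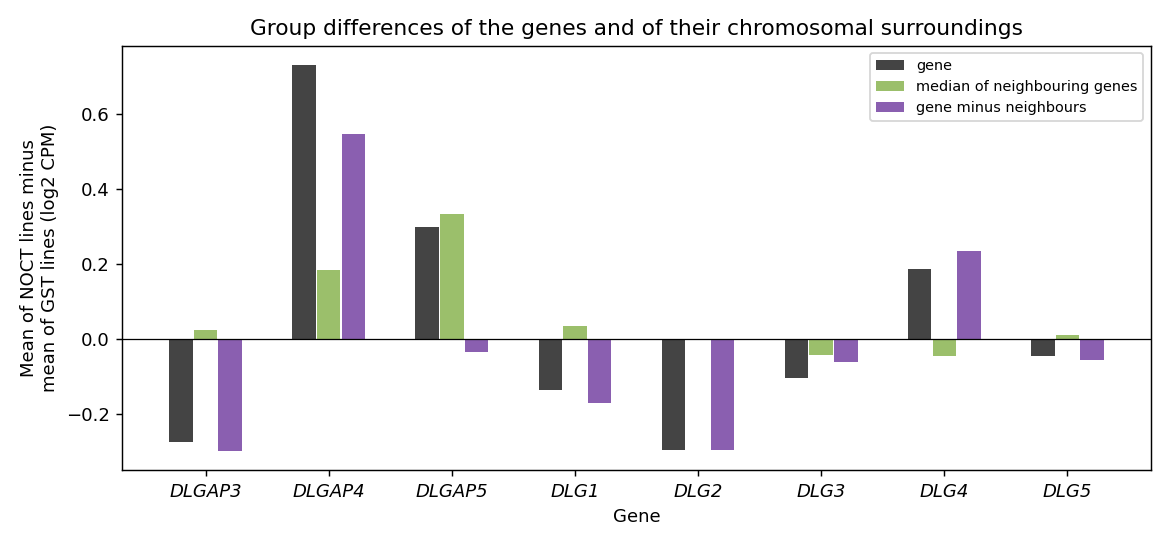
Mean of NOCT lines minus mean of GST lines in log2 CPM for each tested gene other than DLGAP1 (dark), for the median of its neighbours (green) and for the gene minus that median (purple); bars have no error shown and n is 3 lines per group. DLGAP5 and its neighbours stand at 0.30 and 0.33, leaving -0.04, while DLGAP4 keeps 0.55 of 0.73.

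The 3 abundant DLG genes had the smallest fold changes of the 9 tested members. DLG5 (ENSG00000151208; chromosome 10, 77790791 to 77926526, minus strand), a polarity and junction scaffold, was at 101, 108 and 111 CPM in the GST clones, and at 105, 99.4 and 106 CPM in the NOCT clones. DLG3 (ENSG00000082458; chromosome X, 70444861 to 70505490, plus strand), known as SAP102, was at 68.3, 72.9 and 73.0 CPM in the GST clones, and at 63.5, 68.5 and 67.1 CPM in the NOCT clones, in the same order of lines. DLG1 (ENSG00000075711; chromosome 3, 197042560 to 197299300, minus strand), known as SAP97 and a partner of SCRIB in polarity, was at 75.8, 75.8 and 74.3 CPM in the GST clones, and at 65.5, 64.6 and 75.6 CPM in the NOCT clones. All 3 had overlapping groups. The log2 fold changes were -0.05 ± 0.08 for DLG5, -0.11 ± 0.09 for DLG3 and -0.14 ± 0.09 for DLG1 (SE; edgeR adjusted p 0.832, 0.618 and 0.563), and each estimate turned to above 0 when spike-in totals were used as library sizes, a scaling that moved the median of all genes to 0.15. With coefficients of variation of 1.17% to 8.89% within a group, these genes varied less between clones than DLGAP1, at 48.5% in GST lines.

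DLG4 and DLG2 had overlapping groups, with NOCT line 12 the highest NOCT line for both. DLG4 (ENSG00000132535; chromosome 17, 7187169 to 7219841, minus strand) encodes PSD-95, the main scaffold of excitatory synapses. It was at 10.7, 11.9 and 11.7 CPM in GST lines 2, 8 and 9, at 10.9 and 10.8 CPM in NOCT lines 4 and 11, and at 18.8 CPM in NOCT line 12. The counting interval of NOCT line 12, 16.9 to 20.8 CPM, lay above those of the other 5 lines, which ran up to 13.5 CPM. The log2 fold change was 0.23 ± 0.23 (SE; edgeR adjusted p 0.689), and without NOCT line 12 it was -0.08 (adjusted p 0.801). The neighbours of DLG4 in NOCT line 12 were at 0.03 (median deviation, log2 CPM) and DLG4 itself at 0.62.

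DLG2 (ENSG00000150672; chromosome 11, 83455012 to 85627922, minus strand), known as PSD-93, is the longest member at 2173 kb, of which 0.769% is exon. It was at 3.64, 3.21 and 2.61 CPM in the GST clones, and at 2.16, 2.11 and 3.52 CPM in the NOCT clones, on 47 to 70 counts. NOCT line 12 lay within the GST range, and the log2 fold change was -0.28 ± 0.29 (SE; edgeR adjusted p 0.694). DLG5-AS1, the only tested antisense row of a DLG gene, had a log2 fold change of -0.24 (SE 0.27, adjusted p 0.723 in edgeR).

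Genes around these scaffolds were taken as 3 lists: postsynaptic partners, polarity partners, and spindle and mitosis genes. Of 28 postsynaptic partners, 24 were tested, with a median log2 fold change of 0.01. At an adjusted p of 0.05 in edgeR, 0 rose and 0 fell, where 0.0579% of all genes tested passed in either direction. An unadjusted p under 0.05 was reached by 3 of the 24 (1 higher, 2 lower), beside 13.9% of all genes tested. GRIN1, NLGN4X, CACNG2 and LGI1 did not pass the filter. SHANK3 (5.87 to 7.54 TPM), which binds DLGAP proteins, and HOMER1 (20.4 to 24.8 TPM), which binds SHANK proteins, had log2 fold changes of -0.20 and 0.01 (edgeR adjusted p 0.542 or more; chosen after their values were seen). SHANK1 was at 0.51, SHANK2 at 0.67, HOMER2 at -0.05 and HOMER3 at -0.38 (edgeR adjusted p 0.403 or more). Between NOCT clones SHANK1 ran from 0.352 to 2.83 CPM and SHANK2 from 0.251 to 5.11 CPM. The smallest p-values were those of the adhesion genes NLGN2, at -0.54 ± 0.16 (SE; edgeR adjusted p 0.224), and NLGN1, at -0.43 ± 0.16 (0.291). Without overlap of the groups, 1 of the 24 was higher and 4 were lower, beside 10.5% and 9.54% of all genes tested.

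Of 32 polarity partners, 29 were tested, with a median log2 fold change of 0.10. Of these, 0 passed and 5 (2 higher, 3 lower) had an unadjusted p under 0.05 in edgeR, beside 0.0579% and 13.9% of all genes tested. CRB1, CRB2 and CRB3 did not pass the filter. LIN7A (ENSG00000111052; chromosome 12, 80792520 to 80937925), a small scaffold that joins CASK and DLG complexes, was nearest to the threshold. It was at 17.4, 21.4 and 16.4 CPM in the GST clones, and at 5.58, 3.68 and 6.93 CPM in the NOCT clones. Each NOCT line was below each GST line, with a log2 fold change of -1.77 (SE 0.24, adjusted p 0.0563 in edgeR). The call depended on the setting: it passed in 4 of 15 alternatives, among them DESeq2 (adjusted p 1.9e-09) and edgeR without NOCT line 12 (0.00362). Over all genes, DESeq2 called 508 of 17261 and edgeR without NOCT line 12 called 970 of 17882, against 10 of 17261 in the reported fit. Its relatives LIN7B and LIN7C were at 0.11 each (adjusted p 0.842 and 0.654), and CASK was at 0.02 (0.928). MPP7, a DLG1 partner, was at -0.45 ± 0.13 (SE; edgeR adjusted p 0.205). Without overlap, 4 of the 29 were higher and 4 lower, where 10.5% and 9.54% of all genes tested were.

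The mitotic list held 18 spindle and mitosis genes around DLGAP5, and was not a list of its binding partners. All 18 were tested, with a median log2 fold change of 0.04. Of these, 0 passed and 2 had an unadjusted p under 0.05 in edgeR, beside 0.0579% and 13.9% of all genes tested. The smallest p-values were those of AURKB, at -0.23 ± 0.10 (SE; edgeR adjusted p 0.337), and TPX2, at 0.38 ± 0.16 (0.351). TPX2, a spindle assembly factor on chromosome 20, was at 186 to 192 CPM in the GST clones and at 263, 291 and 181 CPM in the NOCT clones, so NOCT line 12 was below the GST range. AURKB, lower in NOCT lines, was the 1 gene of the 18 without overlap, where 9.54% of all genes tested were lower and 10.5% higher in this way.

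**Figure D5:**
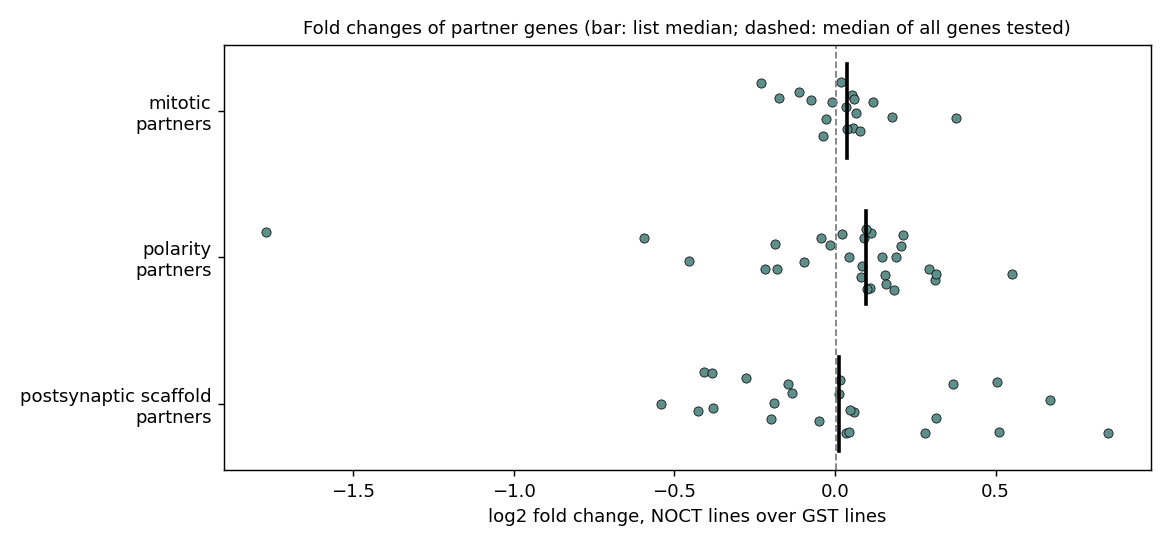
Log2 fold change of NOCT over GST lines for each tested gene of the lists (points, spread vertically for visibility), by list, with list medians (bars) and the median of all genes tested (dashed). The list labelled mitotic partners holds spindle and mitosis genes around DLGAP5. Most points lie within 0.5 of 0, and LIN7A stands apart at -1.77.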

How the data were processed

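RNA of 6 clonal lines was measured with strand-specific, ribosome-depleted libraries, with spike-in RNAs added, per the labels. The deposited files hold raw read counts for each gene; STAR 2.5.2b, HTSeq 0.6.1p1 and GRCh38 are named in the submitters' processing notes, and the annotation release is not given in the sources used here. Rows that name no gene (42.9% to 47.1% of a file) were left out. The deposited TPM values are the authors' counts scaled by 1 length per gene. The authors' deposited DESeq2 table gives log2 fold changes, a mean normalised signal, a test score and p-values; its direction was read from the construct rows.

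Members were found by symbol in the deposited TPM table, and genes were placed by GENCODE release 29 on GRCh38. The members and lists were chosen with earlier results of these data known. Counts were tested with edgeR 4.0.16 in R 4.3.3 (filterByExpr, TMM factors, quasi-likelihood test, Benjamini-Hochberg adjustment over 17261 genes, threshold 0.05), and the script was tested on simulated data. CPM are TMM-scaled, and log2 CPM used a prior count of 2. P-values set the difference between groups against the spread between clones, which was estimated with the help of all genes tested. Poisson intervals and limits of 3 counts cover counting error only. Named genes were all members, tested antisense rows, the 5 nearest tested neighbours of DLGAP1 on each side, the 2 smallest p-values of each list, and the genes most alike by Pearson r (5 for DLGAP1, 3 for members spanning at least 1 on the log2 CPM scale). The SHANK and HOMER genes, LIN7B, LIN7C, CASK and GAPDHP66 were named outside this rule. Neighbour values for members other than DLGAP1 were added after seeing the data. Alternatives were DESeq2 1.42.0, limma 3.58.1 (voom, and log2 of TPM + 1 or + 0.1), other scalings and filters, and leaving out each line. No per-sample column was left unused. Some genes that the rule names are not reported here.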

Additional observations from a re-analysis of the deposited data

How the results depend on the processing

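No paired analysis was possible because the line numbers of the 2 groups are all different. DLGAP1 was chosen on this contrast in the same 6 libraries, so the alternatives describe its estimate and are no support for it. The reported estimate was -5.67, and it stayed below 0 in the 15 alternatives. It was past the threshold in 12 of them, at log2 fold changes of -5.90 to -4.18. It was not past it without GST line 9 (-5.82, edgeR adjusted p 0.0982) or without NOCT line 11 (-6.01, 0.0543). Nor was it with limma on log2(TPM + 1) (-1.85, limma adjusted p 0.0612), a scale that compresses low values. Of the 10 members, 1 passed in the reported fit, 2 (DLGAP1 and DLGAP4) with DESeq2 or with no filter on low counts, 0 with limma on log2(TPM + 1), and 0 to 2 when a line was left out. With spike-in totals as library sizes DLG1 was at 0.0105, DLG3 at 0.0434 and DLG5 at 0.0995 (log2 fold change); with limma on log2(TPM + 1) and log2(TPM + 0.1) DLG5 was at 0.0376 and 0.0388. When a line was left out DLG4 ranged from -0.0811 (without NOCT line 12) to 0.365. After subtraction of the neighbouring genes, an alternative chosen after seeing the data, DLGAP5 was at -0.0360. Of the partners, with no filter on low counts 1 postsynaptic gene passed; 1 polarity gene passed with DESeq2, with library totals without TMM and with no filter. When a line was left out, 0 to 2 of 24 postsynaptic, 0 to 2 of 29 polarity and 0 to 1 of 18 mitotic genes passed. Those above 0 were without NOCT line 12, where 970 of all 17882 genes tested passed. LIN7A was past the threshold in 4 of 15 alternatives. Over all genes the count was 10 of 17261 in the reported fit. Of the same 17261, it was 508 with DESeq2, 16 with limma voom, 34 with library totals without TMM and 22 with spike-in totals. It was 888 of 34539 with no filter. When a line was left out, it was 0 of 17897 (without GST line 9) to 970 of 17882 (without NOCT line 12). The cause was not tested. With 3 to 8 counts of DLGAP1 per NOCT line, depth limits the size of its fold change.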
